A study of Saccharomyces cerevisiae with 8 samples.

Results

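The mutant of YNL040W, a gene that resembles the editing part of alanyl-tRNA synthetases, was followed in a pooled selenomethionine (SeMet) screen together with mutants of 4 aminoacyl-tRNA synthetases (ALA1, MES1, GUS1 and THS1) and of the synthetase cofactor ARC1. These 6 genes were taken by name from 5100 gene names on the array. Of the 6, 5 had a value on at least 1 of 8 arrays, as did 4749 names in all. The MES1 mutant, of methionyl-tRNA synthetase, had no value for either of its 2 probes and is not analysed here. The genes were picked with the scores at 20 µM SeMet known, and YNL040W for its low score there. Values at 20 µM are therefore given for these genes as a description without a test.

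All strains of the pool were haploid mutants derived from BY4741, which carries a mutation in the sulfur assimilation gene MET17. They were deletion mutants of non-essential genes or DAmP mutants, in which the mRNA of an essential gene is destabilized so that less of the protein is made, not none. The study lists YNL040W as a deletion, while the names on the array do not mark the kind of the other mutants. By the design an essential gene such as ALA1 is present as a DAmP mutant. Scores of such mutants are not those of a full loss of the protein, as in a deletion. Cells grew in synthetic complete medium with 0.1 mM methionine and 0.1 mM cysteine. SeMet was given at 20 µM (3 arrays) or 12 µM (2 arrays) for 10 generations, each time against an untreated culture, and 3 further arrays set untreated cells after 16 h of growth against the pool at time 0. The labels call the arrays biological replicates, and the experiment number of each is used below. Each value is the log2 ratio of a strain's barcode between 2 pools, called the relative fitness score for SeMet over untreated and the growth score for growth over time 0. A negative score means that the strain lost share in the pool. The untreated pool is the denominator of the first ratio and the numerator of the second. SeMet or grown cells carried Cy3 on every array and the reference carried Cy5, so on any 1 array a dye difference cannot be told apart from one between the pools. The growth arrays have the same dye orientation as the SeMet arrays, and a dye effect was not tested.

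Aminoacyl-tRNA synthetases join each amino acid to its own tRNA. Some of them also hydrolyse their errors, and alanyl-tRNA synthetase has a separate editing domain that removes serine or glycine wrongly attached to the alanine tRNA. In many organisms free proteins related to this domain act on such mischarged tRNA, and YNL040W is placed in that family by sequence similarity. Methionyl-tRNA synthetase also charges its tRNA with SeMet, which is how SeMet enters proteins in place of methionine.

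On the arrays as a whole, between 4353 and 4722 names had a value. The median of an array lay between −0.15 and 0.11 and the SD over strains between 0.42 and 1.11, with the widest spread in experiment 3 at 20 µM. A strain was scored where at least 2 arrays of a comparison gave a value. From one experiment to another a strain typically varied with an SD of 0.25 (20 µM), 0.16 (12 µM) or 0.23 (growth), each the median over strains. With 2 or 3 arrays a comparison, the precision of each score is limited. An adjusted p under 0.05 called 26.3% of strains at 20 µM in either direction, 1.01% at 12 µM and 26.9% in growth.

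The YNL040W mutant lost share at both concentrations of SeMet and had a growth score close to 0 without SeMet. At 20 µM it scored −4.47, −3.23 and −4.18 in experiments 1 to 3. All 3 values were far below 0, with a mean of −3.96 ± 0.65 (SD, n = 3). This was the fifth lowest mean of 4536 scored strains. Just below it stood RRD1 (−4.01 ± 1.26) and just above it PBI2 (−3.68 ± 0.14). YNL040W was the only one of the 4 scored members beyond −1.5 at 20 µM, a limit under which 3.06% of all strains fell, and none lay above 1.5, as 5.34% of all strains did.

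At 12 µM the YNL040W mutant scored −2.27 and −3.39, with a mean of −2.83 ± 0.79 (SD, n = 2). The value of experiment 2 at 12 µM lay below that of experiment 2 at 20 µM, so the ranges of the concentrations overlapped. The mean was the seventh lowest of 4368 strains at 12 µM. It was below 0 with an adjusted p of 0.011 (limma, 95% interval −3.60 to −2.06). This p-value is not independent of the choice of YNL040W by its low score at 20 µM. By the paper's methods, cultures with 0, 12 and 20 µM SeMet were grown from the same pregrown pool. The 12 and 20 µM scores would then share an untreated culture as their denominator. The labels do not name the untreated culture of each array. Of all strains, 0.87% were called lower at 12 µM by limma, and 0.847% had a mean below −1.5. Without experiment 2 at 12 µM the score of the remaining array, −2.27, did not pass (adjusted p = 0.179, limma). Over 15 alternatives the adjusted p ranged from 0.00271 to 0.179 (limma).

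Without SeMet the YNL040W mutant had growth scores of 0.42, 0.012 and 0.27. These lay between 0 and the upper part of the pool, with a mean of 0.23 ± 0.21 (SD, n = 3) and a place of 3054 from the lowest among 4628 strains. The mean did not pass the test against 0 (adjusted p = 0.56, limma, 95% interval −0.39 to 0.86).

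Both probes of YNL040W gave the same picture on every SeMet array. With 20 µM the first read −4.86, −3.14 and −4.02, and the second −4.08, −3.32 and −4.34. With 12 µM the first read −2.44 and −3.70, and the second −2.10 and −3.08. They differed by 0.034 to 0.78 on the 8 arrays, with a median of 0.35. For strains with 2 measured probes in general the median difference on an array was between 0.21 and 0.48. On the growth arrays the second probe read higher each time, at 0.60, 0.029 and 0.61 against 0.24, −0.0048 and −0.07.

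**Figure D1:**
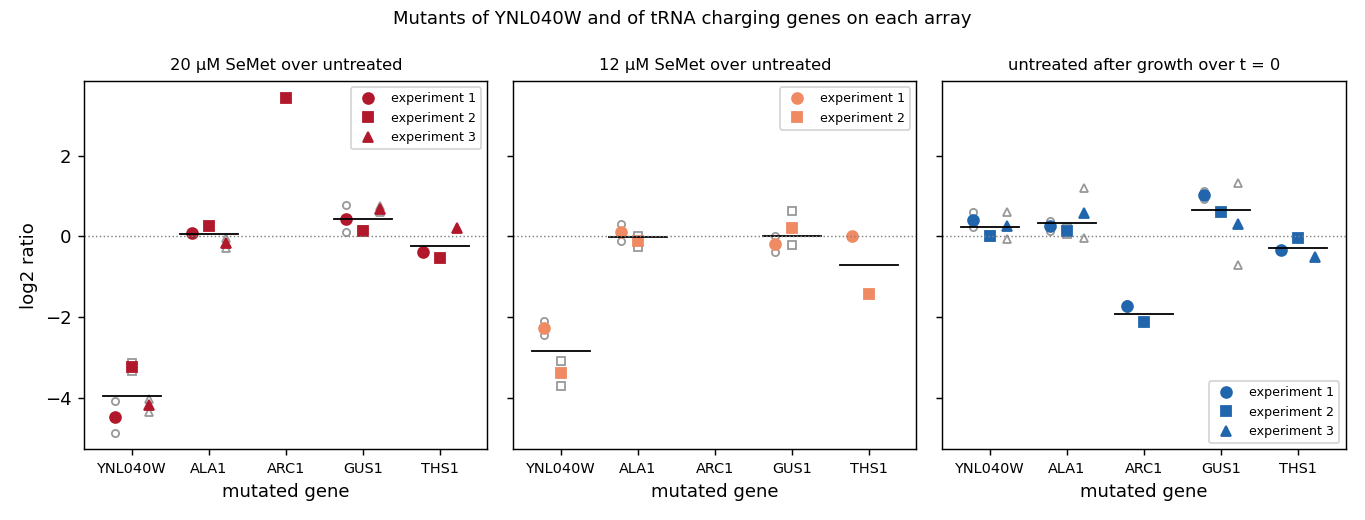
Log2 ratio (vertical axis) of the mutants of YNL040W, ALA1, ARC1, GUS1 and THS1 on the arrays of 20 µM SeMet (left), 12 µM SeMet (middle) and growth without SeMet (right). Filled symbols are the mean of a gene's probes in each experiment, open symbols the single probes and bars the mean over experiments. The probe means of YNL040W lie between −4.47 and −2.27 on the SeMet arrays and its single probes between −4.86 and −2.10, while its probe means on the growth arrays lie between 0.012 and 0.42.

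The mutant of ALA1, the alanyl-tRNA synthetase itself and an essential enzyme of cytosol and mitochondria, stayed close to 0 with SeMet. Its scores were 0.09, 0.25 and −0.16 at 20 µM, a mean of 0.06 ± 0.21 (SD, n = 3) at percentile 65.9. At 12 µM they were 0.11 and −0.12, with a mean of −0.0056 ± 0.16 (SD, n = 2). That mean did not pass the test (adjusted p = 1, limma), and its 95% interval of −0.38 to 0.37 leaves out a shift as large as that of YNL040W. In growth the ALA1 mutant had 0.26, 0.14 and 0.58, all above 0, with a mean of 0.33 ± 0.23 (SD, n = 3) that did not pass after adjustment (adjusted p = 0.1, limma). The probes of ALA1 were as far apart as 1.22 on the array of growth experiment 3.

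ARC1 encodes a tRNA-binding protein that holds methionyl- and glutamyl-tRNA synthetase in a cytosolic complex and helps them to take up their tRNAs. Its mutant was poorly measured, with values on 3 of 8 arrays. The growth scores were −1.73 and −2.12 in experiments 1 and 2, both far below 0 and close to each other. Their mean of −1.92 ± 0.28 (SD, n = 2) was below 0 with an adjusted p of 0.0074 (limma, 95% interval −2.45 to −1.39), at percentile 3.33 of the pool. For growth, 12.7% of all strains were called lower, and 5.38% had a mean below −1.5 while 1.12% had one above 1.5. With SeMet the ARC1 mutant had a single value, 3.44 from 1 probe in experiment 2 at 20 µM, so it was not scored. The spread in the ARC1 fit rests on 1 residual degree of freedom of its own, which limma combines with that of the other strains.

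GUS1 encodes glutamyl-tRNA synthetase, the other partner of ARC1 in that complex. Its mutant scored 0.44, 0.15 and 0.68 at 20 µM, all on the upper side of 0, with a mean of 0.42 ± 0.27 (SD, n = 3). At 12 µM the values of −0.19 and 0.20 fell on either side of 0, and the mean of 0.0055 ± 0.28 (SD, n = 2) did not pass (adjusted p = 1, limma, 95% interval −0.48 to 0.49). In growth the mutant had 1.03, 0.60 and 0.31, again all above 0. The mean of 0.65 ± 0.36 (SD, n = 3) was above 0 with an adjusted p of 0.027 (limma), in a comparison in which 14.2% of strains were called higher. This call was lost in 5 of 15 alternatives, among them without growth experiment 1 (0.46, adjusted p = 0.153, limma) and without growth experiment 2 (0.67, adjusted p = 0.093, limma). In growth experiment 3 the probes of GUS1 went opposite ways, at −0.71 and 1.33.

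THS1 encodes the cytosolic threonyl-tRNA synthetase, which also edits tRNA charged with serine. Its mutant was read by 1 of 2 probes. The scores of −0.38, −0.53 and 0.21 at 20 µM lay on either side of 0, with a mean of −0.24 ± 0.39 (SD, n = 3). The 12 µM values were 0.017 and −1.43, far apart, and their mean of −0.71 ± 1.02 (SD, n = 2) did not pass (adjusted p = 0.45, limma, 95% interval −1.46 to 0.04). Growth scores of −0.34, −0.04 and −0.51 gave a mean of −0.30 ± 0.24 (SD, n = 3), which did not pass either (adjusted p = 0.44, limma).

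At 12 µM the means in ascending order were those of YNL040W, THS1, ALA1 and GUS1. The values of YNL040W did not overlap with those of the other genes, while THS1, ALA1 and GUS1 overlapped with their neighbours in this order. At 20 µM the ascending order was YNL040W, THS1, ALA1 and GUS1 again, with the lowest 3 values of the 4 mutants all in YNL040W. In growth ARC1 stood lowest, followed by THS1, YNL040W, ALA1 and GUS1. The values of ARC1 there were apart from all others, those of THS1 lay below 0 and those of YNL040W above it, and the last 3 overlapped with their neighbours. In total 1 of 4 mutants tested at 12 µM was called lower and 0 higher, against 0.87% and 0.137% of all strains. The same numbers passed an unadjusted p under 0.05 (limma). The lower call was YNL040W, which was picked for its low score at 20 µM. In growth, of 5 tested, 1 was called lower and 1 higher (1 and 2 at an unadjusted p under 0.05), in a comparison that called 12.7% of all strains lower and 14.2% higher.

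The strains with the values most like those of YNL040W were sought by the root mean square difference over all 8 arrays, among 4208 other strains with a value on each. Such a measure weighs the large SeMet scores most. The nearest was PBI2, which encodes an inhibitor of vacuolar proteinase B, at a difference of 0.38. It read −3.61, −3.59 and −3.84 with 20 µM, −2.62 and −3.59 with 12 µM, and 0.53, 0.0014 and 0.35 in growth. FPK1, a protein kinase that controls phospholipid flippases, followed at 0.55, and RRD1, an activator of PP2A-type phosphatases, also at 0.55. IRC21 came next at 0.84 and TIP41, whose product binds the phosphatase regulator Tap42, at 0.91. None of these 5 is a tRNA charging gene. The mean of IRC21 was −3.07 with 20 µM and −1.89 with 12 µM, and that of TIP41 −2.99 and −1.91, both closer to 0 than YNL040W. Mean growth scores of the 5 ran from −0.17 for FPK1 to 0.73 for RRD1, on either side of that of YNL040W.

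**Figure D2:**
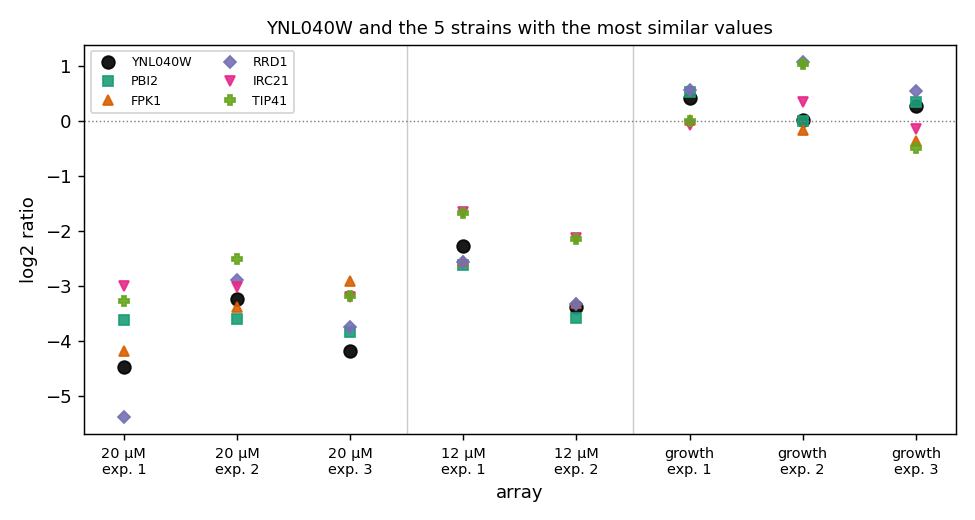
Log2 ratio (vertical axis) on each of the 8 arrays (horizontal axis) for YNL040W and the 5 strains nearest to it by root mean square difference. All 6 strains lie between −5.37 and −1.65 on the SeMet arrays, and between −0.49 and 1.07 on the growth arrays.

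Mutants of the genes beside YNL040W on chromosome XIV were also in the pool. On one side follows BDP1, a subunit of the RNA polymerase III initiation factor TFIIIB. Its mutant had −0.21, 0.19 and 0.47 at 20 µM, a mean of 0.15 ± 0.34 that was not called (adjusted p = 0.48, limma). At 12 µM it had −0.32 and −0.64, and the mean of −0.48 ± 0.23 (SD, n = 2) was not called either (adjusted p = 0.33, limma). On the other side the small gene YNL040C-A is not named among the probes, and beyond it lies COG6, a subunit of the Golgi tethering complex COG. The COG6 mutant had −0.65, −1.004 and −0.78 at 20 µM, with a mean of −0.81 ± 0.18 that was called lower (adjusted p = 0.012, limma), as were 13.8% of all strains. At 12 µM its mean was −0.54 ± 0.05 (SD, n = 2, adjusted p = 0.38, limma). Both neighbours were closer to 0 than YNL040W on every SeMet array.

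Mutants of other genes of tRNA charging, of hydrolysis of charged tRNA, and of tRNA delivery and export had SeMet means closer to 0 than YNL040W. At 12 µM 0 of 33 such mutants were called in either direction by limma, against 1.01% of all strains, so a count of 0 is near that share. An unadjusted p under 0.05 (limma) was passed by 0 of them. Their median was −0.07 beside 0.0003 for all strains, and their lowest mean was −0.67 for the karyopherin MSN5. At 20 µM 3 of 35 were called lower and 8 higher, against 13.8% and 12.5% of all strains, with a lowest mean of −2.35, again for MSN5. Of the 3 lower calls 2 came from delivery and export and 1 from the cytosolic synthetases. The higher calls numbered 2 without experiment 3 at 20 µM and 5 without experiment 2. In growth 17 of 37 were called lower and 2 higher, against 12.7% and 14.2% of all strains, and the lower calls numbered 10 without growth experiment 1 and 10 without growth experiment 2. The means below are over 3 arrays unless n is given, with the SD.

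Of 18 other cytosolic synthetases 14 were scored at 20 µM, with a median of 0.30 beside −0.09 for all strains. Of these 14, 4 were called higher and 1 lower, against 12.5% and 13.8% of all strains. The beta subunit of phenylalanyl-tRNA synthetase, FRS1, was the lowest with −0.94, −1.77 and −1.81, a mean of −1.51 ± 0.49 (adjusted p = 0.0014, limma). Its alpha subunit, FRS2, was the highest with 0.81, 1.02 and 2.15 from 1 probe, a mean of 1.33 ± 0.72 (adjusted p = 0.012, limma), which was not called without experiment 3 at 20 µM (0.92, adjusted p = 0.0606, limma). The values of these subunits did not overlap, though their difference was not tested. In growth FRS1 was called higher (0.67 ± 0.14) and FRS2 lower (−2.05 ± 0.59). The former call was lost with the arrays centred on their medians (0.59, adjusted p = 0.0582, limma) and without any single growth experiment. DED81 (asparagine, −1.09 ± 0.63) and SES1 (serine, −1.06 ± 0.64) were also called lower in growth, and DPS1 (aspartate, 0.82 ± 0.10) higher. The cysteinyl-tRNA synthetase (YNL247W) is not named among the probes, so it could not be analysed here.

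Mutants of mitochondrial tRNA charging stood out in growth. There 12 of 15 were called lower and 0 higher (13 and 0 at an unadjusted p under 0.05), against 12.7% and 14.2% of all strains, and their median was −1.06 beside 0.08 for all strains. MSR1, the mitochondrial arginyl-tRNA synthetase, was lowest with −3.77 and −3.62, a mean of −3.70 ± 0.10 (n = 2, adjusted p = 0.0016, limma). It was followed by SLM5 (asparagine), MSY1 (tyrosine), MSF1 (phenylalanine), AIM10 (proline), NAM2 (leucine) and MSW1 (tryptophan), with means from −2.73 to −1.67. DIA4, MSE1, MSM1, ISM1 and HER2 were called lower with means from −1.06 to −0.57. Without growth experiment 1, and likewise without growth experiment 2, 5 of the list were called lower, since mutants left with 1 growth array were not tested and ISM1 and HER2 were no longer called. At 20 µM 0 of 13 were called lower and 3 higher (3 and 4 at an unadjusted p under 0.05), against 13.8% and 12.5% of all strains. Means ran from SLM5 at −1.03 ± 0.92 (adjusted p = 0.071, limma) to MSY1 at 1.10 ± 0.43 (adjusted p = 0.022, limma). MSM1, the mitochondrial methionyl-tRNA synthetase, which was read where the cytosolic enzyme MES1 was not, had 0.38, 0.60 and 0.84, a mean of 0.61 ± 0.23 (adjusted p = 0.018, limma). Without experiment 3 at 20 µM neither MSY1 nor MSM1 was called (adjusted p = 0.122 and 0.11, limma). The call of MSY1 was also lost without experiment 1 (adjusted p = 0.0764, limma), and that of MSM1 without experiment 2 (adjusted p = 0.0648, limma) and with the 20 µM arrays fitted alone (adjusted p = 0.0511, limma).

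**Figure D3:**
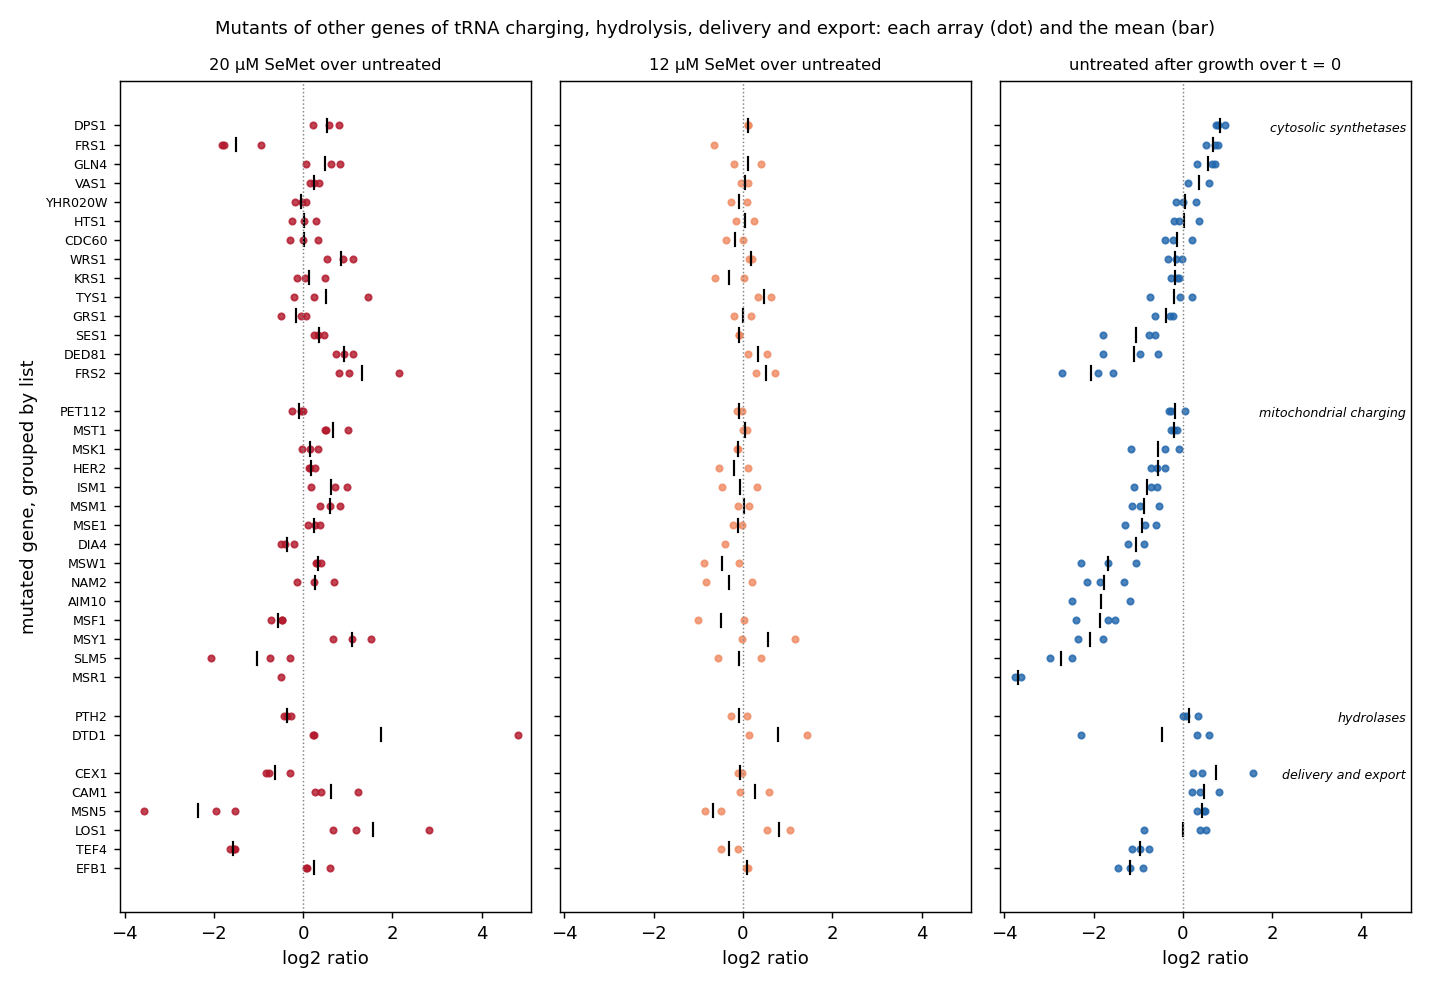
Log2 ratio (horizontal axis) of mutants of other genes of tRNA charging, hydrolysis, delivery and export (vertical axis, grouped by list and ordered by growth score) at 20 µM SeMet, at 12 µM SeMet and in growth without SeMet. Dots are arrays and bars the mean over at least 2 arrays. The mitochondrial charging genes have growth means from −3.70 to −0.17, while at 12 µM the means of all lists lie between −0.67 and 0.80.

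Other enzymes also act on wrongly charged tRNA or free tRNA from peptides released early from the ribosome. Of 3 listed, DTD1 (a D-aminoacyl-tRNA deacylase) and PTH2 (a peptidyl-tRNA hydrolase) were measured, and neither was called in any comparison. DTD1 had 0.22, 0.24 and 4.81 at 20 µM, so that its mean of 1.75 ± 2.64 (adjusted p = 0.2, limma) came from experiment 3. The growth scores of DTD1 were 0.58, 0.32 and −2.28 in experiments 1 to 3. A link between its outlying values in experiment 3 was not tested. PTH2 had −0.28, −0.36 and −0.44 at 20 µM, a mean of −0.36 ± 0.08 (adjusted p = 0.062, limma). That mean was on the same side of 0 as that of YNL040W but far closer to 0. Among 6 scored genes of tRNA delivery and export, the karyopherin MSN5 was lowest at 20 µM with −1.52, −1.96 and −3.57, a mean of −2.35 ± 1.08 (adjusted p = 0.0015, limma). The tRNA exporter LOS1 was highest with 0.67, 1.18 and 2.83, a mean of 1.56 ± 1.13 (adjusted p = 0.026, limma), which was not called without experiment 3 (0.93, adjusted p = 0.125, limma), without experiment 2 (1.75, adjusted p = 0.0553, limma) or with the 20 µM arrays fitted alone (adjusted p = 0.0732, limma). TEF4, an eEF1B gamma subunit, had −1.64, −1.55 and −1.53 at 20 µM, a mean of −1.57 ± 0.06 (adjusted p = 0.00015, limma) that was called lower in all 15 alternatives. In growth the eEF1B subunits EFB1 (−1.18 ± 0.29) and TEF4 (−0.95 ± 0.19) were called lower. LOS1 had growth scores of 0.38, 0.53 and −0.87 in experiments 1 to 3.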

How the data were processed

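Barcodes of the pooled mutants were amplified from genomic DNA and hybridized to custom Agilent slides in 2 colours. The authors read the scanned slides with GenePix Pro and normalized the spots with R scripts whose method is not given in the sources used here, and they deposited 1 log2 ratio for each probe, taken here unchanged. Of 15744 probes, 13084 carried 1 gene symbol, and the other 2660 were left out. The mean of a name's probes was taken array by array, giving values for 4749 of 5100 names. The annotation was used for names and the order of genes only.

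With limma 3.58.1 (R 4.3.3), a linear model with 3 group means and 1 shared spread was fitted to all 8 arrays, and each mean was tested against 0 (moderated by eBayes, two-sided). P-values were adjusted by Benjamini-Hochberg over all strains with at least 2 values in the group, and strains with an adjusted p under 0.05 were called. In simulated data of 4209 strains at 12 µM, 88 of 100 strains shifted by 1.5 and 100 of 100 shifted by 3 were called, with 6 false calls among 194. The simulated noise was normal and independent between arrays, with the same SD for a strain in every group. The real 12 µM arrays gave fewer calls (1.01% of strains), which makes the adjusted threshold stricter. The simulated shares therefore need not hold for the real arrays. Tables and plots were made in Python 3.11.15 (matplotlib 3.10.9, numpy 2.4.6, pandas 2.3.3).

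The members and the lists of other genes were chosen with earlier results of these data known. Besides the 6 members, the text names every strain of the lists that was called at 12 µM or in growth, the cysteinyl-tRNA synthetase, the lowest and highest mean of each list at 20 µM, the 5 strains most like YNL040W, and its neighbours. Alternatives were the median of the probes, arrays centred or scaled, strains with a value on all 8 arrays, each array left out, the experiment number as a block, fits of 1 group alone, and robust eBayes.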

Additional observations from a re-analysis of the deposited data

Results flagged for a closer look

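Among the other tRNA charging genes, 3 mutants were above 0 on every array of 20 µM and below 0 on every array of 12 µM. SES1 had means of 0.35 and −0.089, MSE1 of 0.25 and −0.12, and MSW1 of 0.33 and −0.48 at 20 and 12 µM. These means did not pass limma at either concentration, and the difference between the concentrations was not tested. The share of all strains with this pattern was not counted, so these 3 mutants have no background beside them. Some values lay close to 0, such as −0.098 and −0.080 for SES1 at 12 µM, where the median SD of a strain was 0.16.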

How the results depend on the processing

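The scores of YNL040W, ALA1, GUS1 and THS1 at 20 µM moved by less than the SD between experiments with arrays centred or also scaled. YNL040W was −3.87 with arrays centred and −3.52 with arrays also scaled. Leaving out 1 of 3 arrays cannot move a mean by as much as the SD. The median of 2 probes equals their mean. Those alternatives could therefore not show a larger shift at 20 µM. At 12 µM YNL040W lay between −3.39 and −2.27 when single arrays were left out. At 12 µM ALA1 and GUS1 lay so close to 0 that their sign turned. ALA1 was −0.0056, but 0.0031 with the replicate block and 0.0041 with arrays centred and scaled, and from −0.12 to 0.11 with single arrays left out. GUS1 was 0.0055, but −0.0036 with arrays centred, −0.044 with arrays centred and scaled, −0.015 with the replicate block, and from −0.19 to 0.20 with single arrays left out. THS1 at 12 µM ranged from −1.43 to 0.017. The growth call of GUS1 was lost with arrays centred and scaled (0.54), with the replicate block (0.65, adjusted p = 0.0561, limma) and with growth arrays alone (0.65), and with single arrays left out it lay between 0.46 and 0.82. The cause was not tested.

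Counts over all strains depended on the setting. At 20 µM 627 strains were called lower and 567 higher, with 364 to 689 and 371 to 577 when single arrays were left out. At 12 µM 38 and 6 were called, against 198 and 174 with arrays centred and scaled, which widens the 12 µM arrays, and 79 and 81 with these arrays alone. With the replicate block 20 were lower at 12 µM, with strains on all 8 arrays 13 were higher, and with single arrays left out 4 to 49 were lower and 0 to 20 higher. In growth 588 and 656 were called, against 665 and 441 with arrays centred and 664 and 398 with arrays also scaled, and 280 to 664 and 201 to 692 with single arrays left out.

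Of the other genes of tRNA charging, hydrolysis, delivery and export, 4 were higher at 20 µM with these arrays alone and 2 to 9 with single arrays left out. In growth 10 to 17 were lower with single arrays left out. Higher in growth were 1 with arrays centred, 1 with arrays also scaled, and 1 to 3 with single arrays left out. Mitochondrial genes lower in growth numbered 7 among strains on all 8 arrays. There MSR1, SLM5, MSY1, DIA4 and AIM10, which lack values on some arrays, were not tested. With single arrays left out the number was 5 to 12. Cytosolic synthetases higher at 20 µM numbered 4 of 14 in the main fit and 1 to 4 with single arrays left out. The deviations of same-numbered arrays from their group means had r from −0.27 to 0.16. With 2 arrays at 12 µM the deviations mirror each other, so r there cannot show whether arrays are paired. Between 20 µM and growth r was 0.16, −0.08 and −0.16 in experiments 1 to 3. The untreated pool stands on opposite sides of these 2 ratios. Whether the arrays are paired was not settled, and the main fit did not treat the experiment numbers as pairs. With 1 array of 12 µM left out, the lone array is assumed to vary like the other groups. ARC1 could not be fitted with the block or with the first or second growth array left out.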
